A study of Homo sapiens with 5 samples.

Results

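Protein kinase A (PKA) is the main kinase that responds to the second messenger cyclic AMP (cAMP). The 9 genes described here encode its catalytic subunits (PRKACA and PRKACB), its regulatory subunits (PRKAR1A, PRKAR1B, PRKAR2A and PRKAR2B) and its heat-stable inhibitors (PKIA, PKIB and PKIG). They were taken as a fixed list of symbols. All 9 are among the 26485 genes of the deposited count tables, and 8 of the 14536 genes with enough reads to be tested belong to the list. The libraries were made from SW480 cells, a long-established line from a human colon carcinoma, and read the 3' part of polyadenylated transcripts. Cells of both groups carried dCas9-KRAB, in which Cas9 without cutting activity is joined to a repressor domain and dampens transcription at the site a guide RNA matches. There were 3 libraries of cells given guide RNA against AKAP12 (labelled shAKAP12 in the titles and sgAKAP12 in the protocol) and 2 libraries of cells given control guides (shControl, sgControls). The titles and the shRNA field of the samples thus name short hairpins where the protocol names guides. The description of guides and dCas9-KRAB follows the protocol, and the samples are grouped by the gene both name. RNA was taken 48 hours after seeding in both groups. The labels give neither the number of guides nor whether the cells are a single clone.

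In the resting enzyme, a dimer of regulatory subunits holds catalytic subunits inactive. Binding of cAMP to the regulatory subunits frees the catalytic subunits, which then phosphorylate their substrates. Regulatory subunits are of type I (PRKAR1A, PRKAR1B) or type II (PRKAR2A, PRKAR2B). Both types dock onto A-kinase anchoring proteins, of which AKAP12 is one, and type II subunits are the ones best known for such docking. The inhibitor proteins bind free catalytic subunits as pseudosubstrates, and they are known to carry catalytic subunits out of the nucleus.

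Sequences upstream of these genes are shown for 3 of them. PRKAR1B and PKIG are shown because they fell in the knockdown, and PRKAR1A because it is the close paralog of PRKAR1B and holds the full cAMP response element. The windows are RefSeq sequences (GRCh38.p14) that run from 250 bases before to 50 bases after an annotated start, 5′ to 3′ on the gene's strand. Capitals mark the full cAMP response element TGACGTCA or its core TGACG, both searched on both strands. The full element holds a core on each strand, and these overlap.
PRKAR1B, chr7:727627-727926, minus strand: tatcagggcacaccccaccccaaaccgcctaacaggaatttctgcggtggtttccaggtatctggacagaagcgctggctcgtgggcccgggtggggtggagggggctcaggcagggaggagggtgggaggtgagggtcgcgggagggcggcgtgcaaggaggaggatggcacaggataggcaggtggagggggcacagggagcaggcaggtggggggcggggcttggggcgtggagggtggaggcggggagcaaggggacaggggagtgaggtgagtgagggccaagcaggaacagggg
PKIG, chr20:44531625-44531924, plus strand: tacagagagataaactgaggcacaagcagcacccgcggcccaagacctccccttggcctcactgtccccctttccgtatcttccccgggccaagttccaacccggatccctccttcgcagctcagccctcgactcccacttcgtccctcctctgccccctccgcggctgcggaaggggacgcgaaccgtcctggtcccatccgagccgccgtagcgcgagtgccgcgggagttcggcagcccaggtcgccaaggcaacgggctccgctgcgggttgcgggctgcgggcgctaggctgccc
PRKAR1A, chr17:68512129-68512428, plus strand: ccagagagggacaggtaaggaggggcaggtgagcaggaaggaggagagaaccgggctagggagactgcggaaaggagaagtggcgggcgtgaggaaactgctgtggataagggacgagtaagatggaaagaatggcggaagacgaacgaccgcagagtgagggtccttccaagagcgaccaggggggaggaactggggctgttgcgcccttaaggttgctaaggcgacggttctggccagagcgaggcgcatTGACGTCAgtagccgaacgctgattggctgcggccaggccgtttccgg

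The PRKAR1B and PKIG windows shown lie nearest to the gene starts used for counting and held 0 matches to either motif. PRKAR1B has 6 windows in the RefSeq table, of which 2 others hold the core, and PKIG has 2 windows, of which 0 hold it. The PRKAR1A window was picked for its full element and lies 98756 bases from the gene start used for counting. PRKAR1A has 5 windows, of which 4 hold the core. Each of the 8 members searched (PKIA was not) had at least 1 window in the RefSeq table, 25 windows in all. Of these, 11 held a core and 2 held the full element, both of them windows of PRKAR1A. Among all 35116 windows of the same length, 24.6% held a core and 1.85% the full element. A match describes the letters of a window only. The G and C content of the windows was 68.3% for PRKAR1B, 68.7% for PKIG and 61.0% for PRKAR1A.

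Total reads per library were 9311026, 6890868 and 7763190 in the knockdown, against 4935096 and 8670141 in controls 1 and 2. The 9 genes held 3797 to 5105 of these reads in the knockdown libraries, against 3846 and 6484 in the controls. The controls were less alike than the knockdown libraries. Across tested genes, which are not independent replicates, log2 CPM (read counts scaled to a common library size) had a Pearson correlation of 0.98 in each knockdown pair, against 0.90 between the controls. Control 2 correlated with the knockdown libraries at 0.92 to 0.93, and control 1 at 0.79 to 0.81. Control 2 was thus closer to each knockdown library than to control 1. Reads on TERT made up 0.0451% to 0.249% of the knockdown libraries, against 7.43% and 3.54% of the controls, and the 10 most abundant genes held 5.41% to 5.65%, against 20.2% and 9.13%. Values without control 1 and without control 2 are therefore given for AKAP12, the tested members other than PKIB, and the list medians. For other genes they are given only in part. A result without such values may also depend on the control used. AKAP12, the targeted gene (chromosome 6, 151239999 to 151358561), had 1159, 1063 and 1008 CPM in the knockdown libraries, against 2870 and 1550 CPM in the controls. Its log2 fold change was -1.04 (SE 0.31, edgeR adjusted p = 0.0513), which missed the threshold of 0.05, and it was -0.52 without control 1 and -1.42 without control 2.

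Of the 12 colon epithelial markers, the keratin genes KRT18, KRT19 and KRT8 and the adhesion gene EPCAM had the most reads. CDX1 had 0 reads, GPA33 and LGR5 had at most 2 in a library, and CDH1, VIL1 and CDH17 had at most 31. The summed level of the 12 epithelial markers was 1400 to 1660 CPM in the knockdown libraries, against 1070 and 1617 CPM in the controls. The 12 stromal markers, led by VIM, summed to 1853 to 2036 CPM in the knockdown, against 1603 and 1699 CPM in the controls. The 12 blood and immune markers summed to 114.3 to 142.6 CPM, against 136.9 and 157.5 CPM, and the 6 endothelial markers to 49.3 to 60.3 CPM, against 54.4 and 74.3 CPM. Of these lists, 9 epithelial, 12 stromal, 12 immune and 3 endothelial genes were tested. Of those, 1 epithelial gene (KRT8) rose, and 2 stromal genes (COL6A3 and PDGFRA) and 3 immune genes (CD68, CSF1R and CD3D) fell. No endothelial gene passed the test. Among all tested genes, 11.2% were called higher and 11.4% lower. The exons of KRT8 overlap those of KRT18. Scaled by library size only, none of the 3 immune calls held (edgeR adjusted p of 0.0822 for CD68, 0.0537 for CSF1R and 0.0752 for CD3D). CSF1R was also lost by limma-voom (adjusted p = 0.0564) and CD3D with no filter (edgeR adjusted p = 0.0826). The median log2 fold change was -0.12 for epithelial, 0.45 for stromal, 0.01 for immune and -0.55 for endothelial genes. Without control 1 these medians were -0.16, 0.08, -0.36 and -0.49. Without control 2 they were 0.04, 0.74, -0.12 and 0.41. With either control left out, 5 endothelial genes were tested. Over all tested genes the medians of these fits were 0.04, 0.02 and 0.12. The part of these differences in the results below was not tested.

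In the knockdown, the regulatory subunit gene PRKAR1B and the inhibitor gene PKIG fell, and no member rose. Of the 8 tested members, 2 fell and 0 rose past an edgeR adjusted p of 0.05, against 11.4% of all tested genes called lower and 11.2% called higher (22.6% in either direction). Leaving out any one knockdown library ended both calls, as 0 of all tested genes then passed (edgeR adjusted p of 0.0925 to 0.133 for PRKAR1B and 0.0943 to 0.134 for PKIG). At an unadjusted p under 0.05, 3 members were lower (PRKAR2A as well) and 1 was higher (PRKACB), where 20.7% of all tested genes were lower and 19.8% higher at that level (40.5% in either direction). DESeq2 called 3 members lower and 0 higher, where 15.7% and 15.0% of all genes passed in these directions (30.7% in either). Limma-voom called 2 lower and 0 higher, where 9.76% and 11.4% passed (21.1% in either). The median log2 fold change was -0.33 over the 8 members and 0.04 over all tested genes. Leaving out control 1 gave medians of -0.57 over the members and 0.02 over all genes. Leaving out control 2, with 7 members tested, gave -0.05 and 0.12. Scaled by library size only, the median over all genes was 0.23, and 6.76% of genes were called lower against 11.5% higher (18.2% in either direction). In bulk RNA, a smaller number of cells that express a gene and less of its RNA per cell cannot be told apart.

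**Figure D1:**
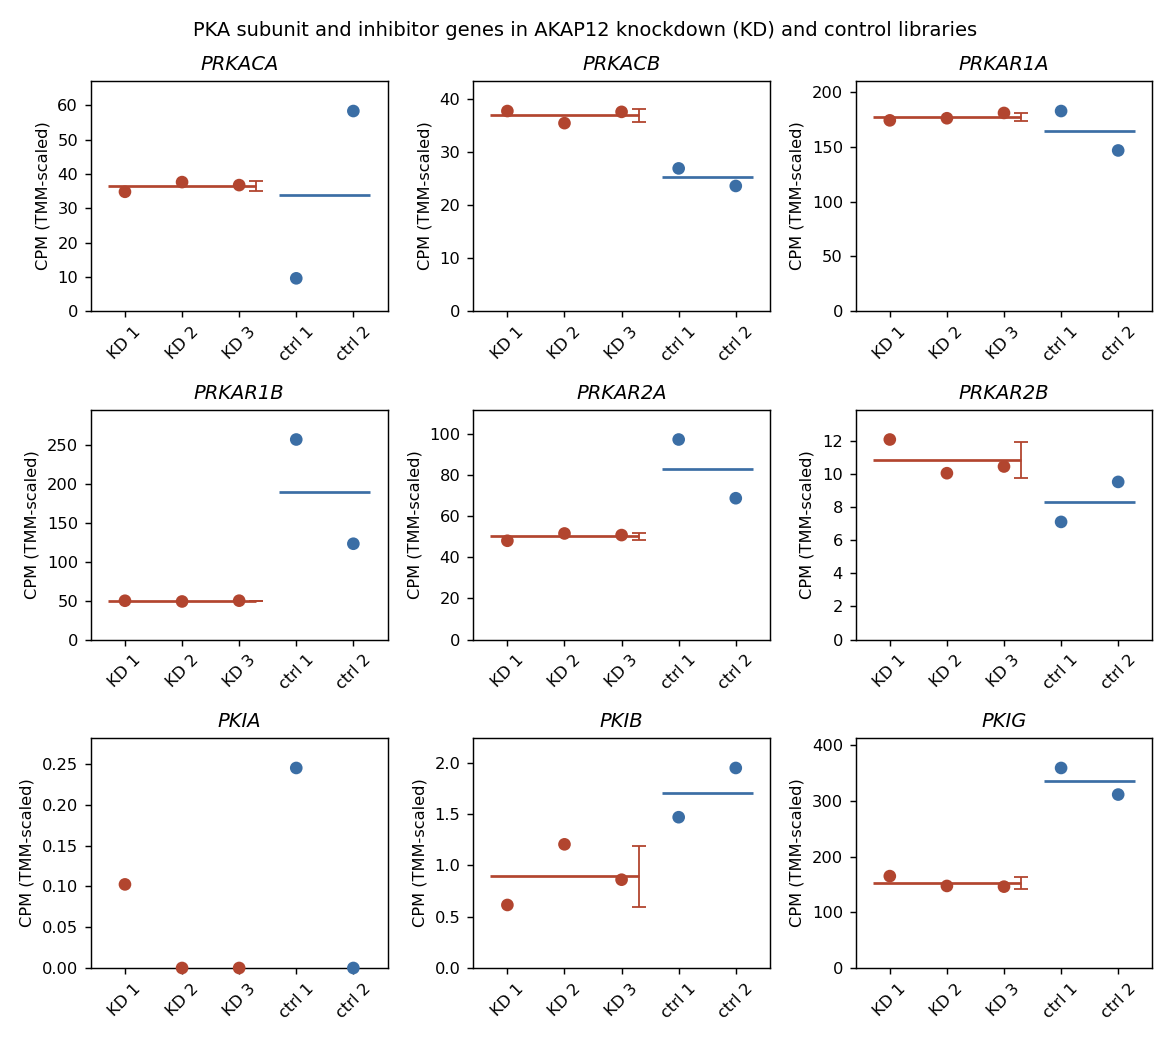
Level of each PKA gene (vertical axis, TMM-scaled CPM) in each library (horizontal axis), with AKAP12 knockdown libraries in red and controls in blue. Horizontal lines are group means, and error bars are the SD of the 3 knockdown libraries; none is drawn for PKIA, which had 0 or 1 read. Knockdown points lie below both controls for PRKAR1B, PRKAR2A, PKIB and PKIG, and above both for PRKACB and PRKAR2B.

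The catalytic subunits carry the kinase activity. PRKACA (Cα, chromosome 19, 14091695 to 14117747) had 34.8, 37.6 and 36.8 CPM in the knockdown libraries, against 9.55 and 58.4 CPM in controls 1 and 2. The controls lie on either side of the knockdown, so the groups overlap. The fitted log2 fold change was 0.07 (SE 0.61, edgeR adjusted p = 0.941), and its direction depended on the control used. It was called lower without control 1 (-0.68, edgeR adjusted p = 0.00219) and higher without control 2 (1.92, edgeR adjusted p = 1.5e-06). The level in control 1 rests on 39 reads, against 509 in control 2.

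PRKACB (Cβ, chromosome 1, 84077975 to 84238498) had 37.8, 35.5 and 37.6 CPM in the knockdown, against 26.9 and 23.6 CPM in the controls. All knockdown libraries were above both controls. The log2 fold change of 0.55 (SE 0.20) had an edgeR adjusted p of 0.0903 and missed the threshold. It passed when scaled by library size only (0.76, edgeR adjusted p = 0.0428) and was 0.65 without control 1 and 0.45 without control 2.

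Among the regulatory subunits, PRKAR1B passed the test and its type I paralog PRKAR1A did not. PRKAR1A (RIα, the broadly expressed type I subunit, chromosome 17, 68413623 to 68551316) had 174.5, 176.4 and 181.2 CPM in the knockdown, against 183.0 and 146.9 CPM in the controls. The groups overlap, and the log2 fold change was 0.11 (SE 0.19, edgeR adjusted p = 0.710). It was -0.05 without control 2 and 0.27 without control 1.

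PRKAR1B (RIβ, a type I subunit best known from neurons, chromosome 7, 549197 to 727676) had 49.96, 49.02 and 50.04 CPM in the knockdown, against 257.7 and 123.4 CPM in the controls. The knockdown libraries were nearly equal and lay far below both controls, of which control 1 was the higher. PRKAR1B was 3.83-fold lower (log2 fold change -1.94, SE 0.31, edgeR adjusted p = 0.0167). It was -1.31 without control 1 and -2.38 without control 2. Only 2.90% of tested genes had a lower log2 fold change. In the annotation used for counting, 106 of its 2977 exonic bases, none within 178013 bases of its 3' end, also belong to DNAAF5 on the other strand, whose log2 fold change was -0.20 (edgeR adjusted p = 0.536). The other 8 members share no exonic base with another gene.

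The type II genes did not pass the test. PRKAR2A (RIIα, chromosome 3, 48750660 to 48847837) had 48.0, 51.6 and 50.8 CPM in the knockdown, against 97.2 and 68.7 CPM in the controls. Every knockdown library was below both controls. The log2 fold change of -0.72 (SE 0.22) had an edgeR adjusted p of 0.0530. It passed by DESeq2 (adjusted p = 0.0330) and with the stricter filter on low counts (edgeR adjusted p = 0.0435, where 15.1% of genes were called lower and 13.9% higher, 29.0% in all). It was -0.45 without control 1 and -0.96 without control 2.

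PRKAR2B (RIIβ, known from fat and brain, chromosome 7, 107044733 to 107161811) had 12.1, 10.0 and 10.5 CPM in the knockdown, against 7.10 and 9.52 CPM in the controls. The groups did not overlap, but the gap between the lowest knockdown library and control 2 was small. The log2 fold change was 0.37 (SE 0.28, edgeR adjusted p = 0.360), with 0.20 without control 1 and 0.61 without control 2.

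Of the inhibitors, PKIG (PKIγ, chromosome 20, 44531781 to 44619037) held nearly all the reads. It had 164.8, 147.2 and 145.9 CPM in the knockdown, against 358.9 and 311.2 CPM in the controls. The controls were close to each other and both lay well above the knockdown. PKIG was 2.19-fold lower (log2 fold change -1.13, SE 0.19, edgeR adjusted p = 0.0175). It was at -1.03 without control 1 and -1.24 without control 2.

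PKIB (PKIβ, chromosome 6, 122471917 to 122726373) had 6, 9 and 7 reads in the knockdown, against 6 and 17 in the controls. These are 0.61, 1.21 and 0.86 CPM, against 1.47 and 1.95 CPM. The groups did not overlap on the CPM scale, and the log2 fold change of -0.97 (SE 0.57) did not pass (edgeR adjusted p = 0.242). PKIA (PKIα, chromosome 8, 78516101 to 78605267) had 1, 0 and 0 reads in the knockdown, against 1 and 0 in the controls. A count of 0 allows up to 0.40 and 0.37 CPM in knockdown libraries 2 and 3, against 0.34 CPM in control 2, taking 3 reads as the limit. With at most 1 read in a library, PKIA was too low to be tested at this depth, so no fold is given.

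Over the 8 tested members, the groups did not overlap in 2 that were higher (PRKACB and PRKAR2B) and 4 that were lower (PRKAR1B, PRKAR2A, PKIB and PKIG) in the knockdown. Among all tested genes the groups did not overlap in 31.6% that were higher and 28.5% that were lower (60.1% together). Without control 1, edgeR called 4 members lower (PRKACA, PRKAR1B, PRKAR2A and PKIG) and 1 higher (PRKACB), against 17.0% and 20.3% of all tested genes (37.3% together). Without control 2 it called 3 lower (PRKAR1B, PRKAR2A and PKIG) and 1 higher (PRKACA), against 27.6% and 30.5% (58.1% together). With 1 control left, the spread in these fits comes from the knockdown libraries alone, and the lone control is assumed to vary like them.

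**Figure D2:**
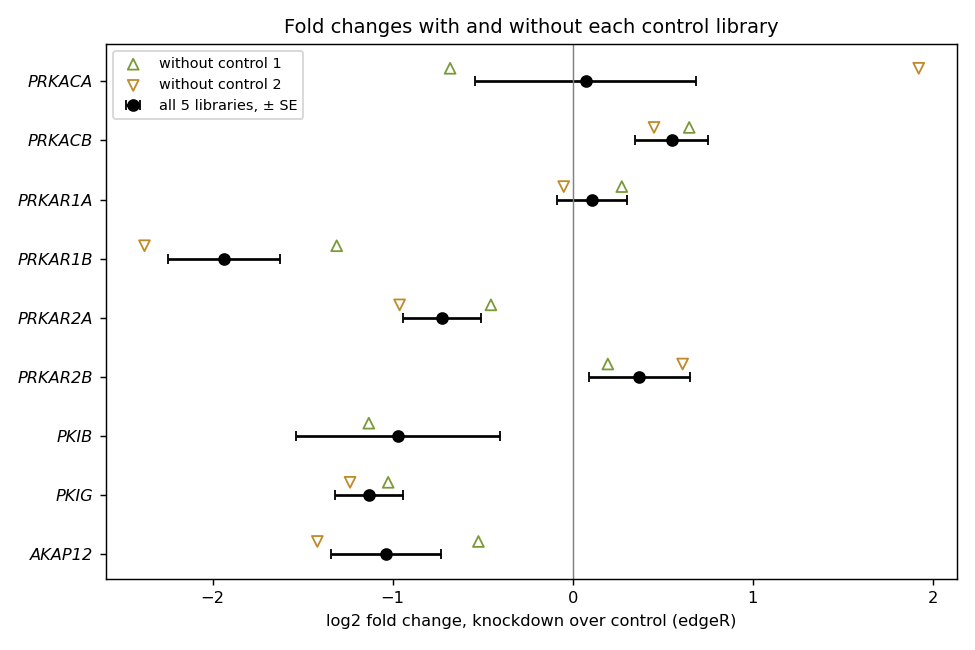
edgeR log2 fold change (horizontal axis, knockdown over control) of the 8 tested PKA genes and AKAP12, with black points and SE bars for all 5 libraries. Open triangles leave out control 1 or control 2; PKIB was not tested without control 2. PRKACA lies at -0.68 or 1.92 depending on the control left out, whereas PKIG stays between -1.03 and -1.24.

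The place of the members among all tested genes is shown by the histogram of fold changes. PRKAR1B lay in its lower tail, PKIG had 11.5% of tested genes below it, and PRKACA and PRKAR1A lay near the middle, with 51.5% and 52.8% of genes below them.

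**Figure D3:**
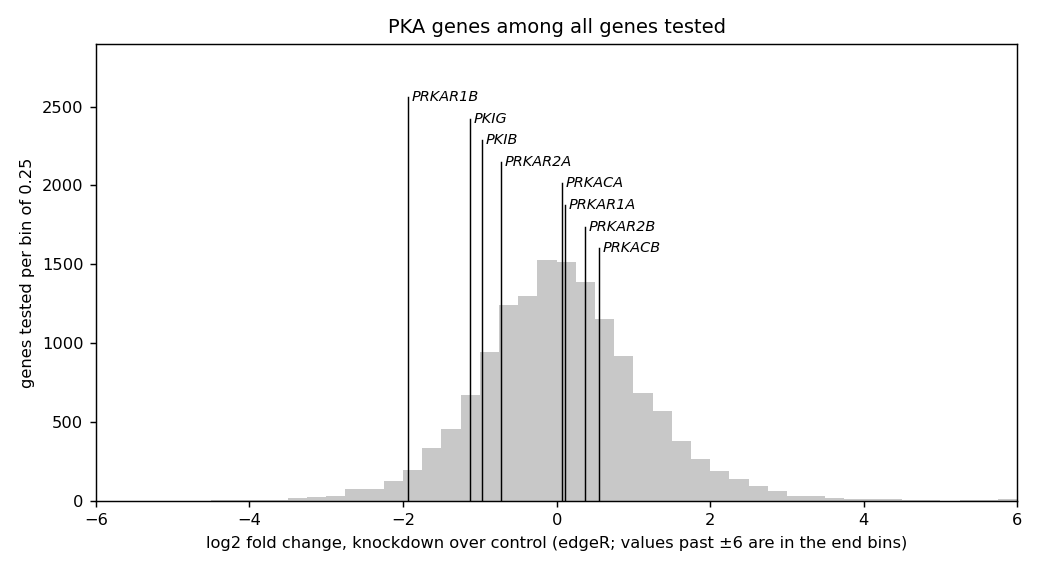
Histogram of edgeR log2 fold changes (horizontal axis, knockdown over control) of the 14536 tested genes, with the number of genes per bin on the vertical axis. Black lines mark the 8 tested PKA genes; line heights only separate the names. PRKAR1B at -1.94 is the member farthest from 0, and PRKACB at 0.55 is the highest.

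Within the regulatory pool, the shares held by PRKAR1A and PRKAR1B did not overlap between the groups. These shares are of 3' end reads and need no scaling between libraries. PRKAR1A held 61.6% ± 0.34 of the regulatory subunit reads in the knockdown (SD, n = 3), against 33.6% and 42.2% in the controls. PRKAR1B held 17.2% ± 0.27 in the knockdown (SD, n = 3), against 47.3% and 35.4% in the controls. In control 1 PRKAR1B was the largest of the regulatory genes by reads, and in every other library PRKAR1A was.

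The exact 95% binomial interval of the PRKAR1B share was 45.2% to 49.4% in control 1 and 33.7% to 37.1% in control 2. The controls thus differ beyond counting error if each read stands for a separate molecule. In the knockdown libraries the intervals lay between 15.5% and 19.0%. PRKAR2A held 16.9% to 18.0% in the knockdown, against 17.8% and 19.7% in the controls, and the groups overlap. PRKAR2B held 3.50% to 4.25%, against 1.30% and 2.73%.

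In the catalytic pool PRKACA held 49.6% ± 1.76 of the reads in the knockdown (SD, n = 3), against 26.2% and 71.2% in the controls. The exact 95% intervals were 19.3% to 34.0% in control 1 and 67.7% to 74.5% in control 2, and 44.2% to 55.7% over the knockdown libraries. The knockdown thus had near-equal reads of both catalytic genes, PRKACB led in control 1 and PRKACA led in control 2. In the inhibitor pool PKIG held 99.2% to 99.6% of the reads in the knockdown, against 99.5% and 99.4% in the controls.

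**Figure D4:**
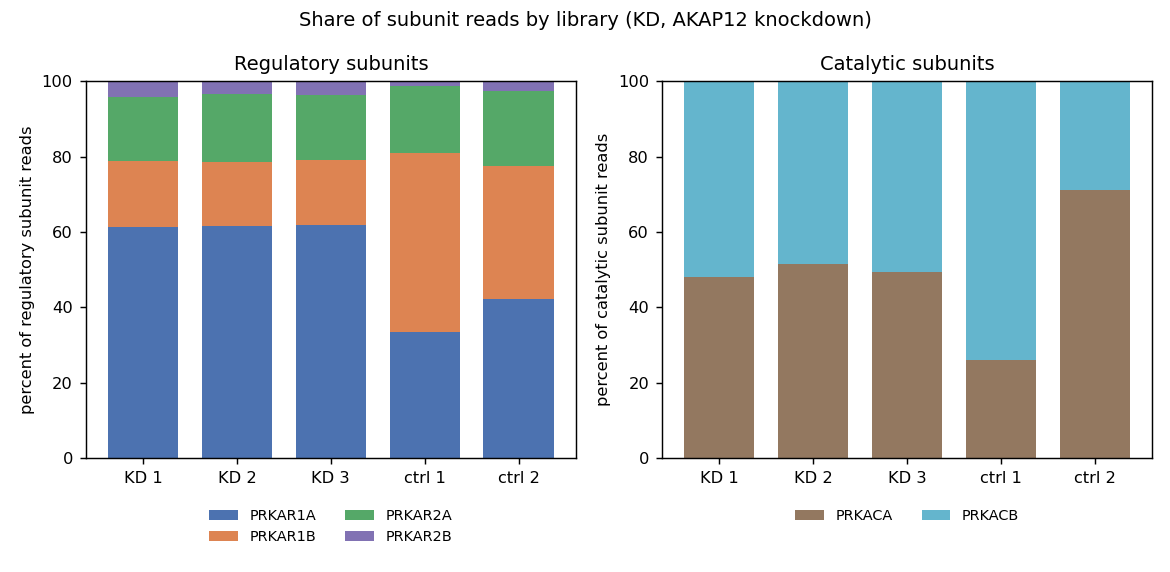
Share of regulatory (left) and catalytic (right) subunit reads held by each gene (vertical axis, percent) in each library, knockdown (KD) libraries first. PRKAR1B takes 17.1% to 17.6% of regulatory reads in the knockdown, against 47.3% and 35.4% in controls 1 and 2; the PRKACA share of the controls lies on either side of the knockdown.

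Ratios within each library were compared by an exact two-sided permutation test over the libraries. With 3 libraries against 2 this exact permutation test cannot go below p = 0.1, so none of the 6 ratios could pass. The ratio of PRKAR1A to PRKAR1B was 3.49, 3.60 and 3.62 in the knockdown, against 0.71 and 1.19 in the controls. The groups did not overlap, and the difference in log2 ratio was 1.96 (exact permutation p = 0.1, adjusted p = 0.15 over the 6 ratios), or 1.58 without control 1 and 2.33 without control 2. The knockdown libraries agreed to an SD of 0.03 on the log2 scale, while the controls were 0.75 apart.

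PRKAR2A exceeded PRKAR2B by 3.97, 5.13 and 4.86 times in the knockdown, against 13.7 and 7.22 times in the controls (log2 difference -1.10, exact permutation p = 0.1, adjusted p = 0.15). The difference was -0.64 without control 1 and -1.56 without control 2. PRKAR2B had 29 reads in control 1, against 83 in control 2. Type I reads together exceeded type II reads by 3.73, 3.66 and 3.78 times in the knockdown, against 4.22 and 3.46 times in the controls. The controls enclose the knockdown here, with a log2 difference of -0.04 (exact permutation p = 0.8).

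Regulatory reads exceeded catalytic reads by 3.92, 3.92 and 3.93 times in the knockdown, against 14.9 and 4.25 times in the controls. The log2 difference of -1.02 (exact permutation p = 0.1, adjusted p = 0.15) came down to -0.11 without control 1 and was -1.93 without control 2. Inhibitor reads exceeded catalytic reads by 2.28, 2.03 and 1.97 times in the knockdown, against 9.88 and 3.82 times in the controls. This log2 difference was -1.55 (exact permutation p = 0.1, adjusted p = 0.15), and -0.87 without control 1 or -2.24 without control 2. Both ratios to catalytic reads rest on 149 catalytic reads in control 1, against 715 in control 2. The PRKACA to PRKACB ratio was 0.92, 1.06 and 0.98 in the knockdown, against 0.35 and 2.47 in the controls, with a log2 difference of 0.07 (exact permutation p = 0.8), which was -0.45 when formed from group means.

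**Figure D5:**
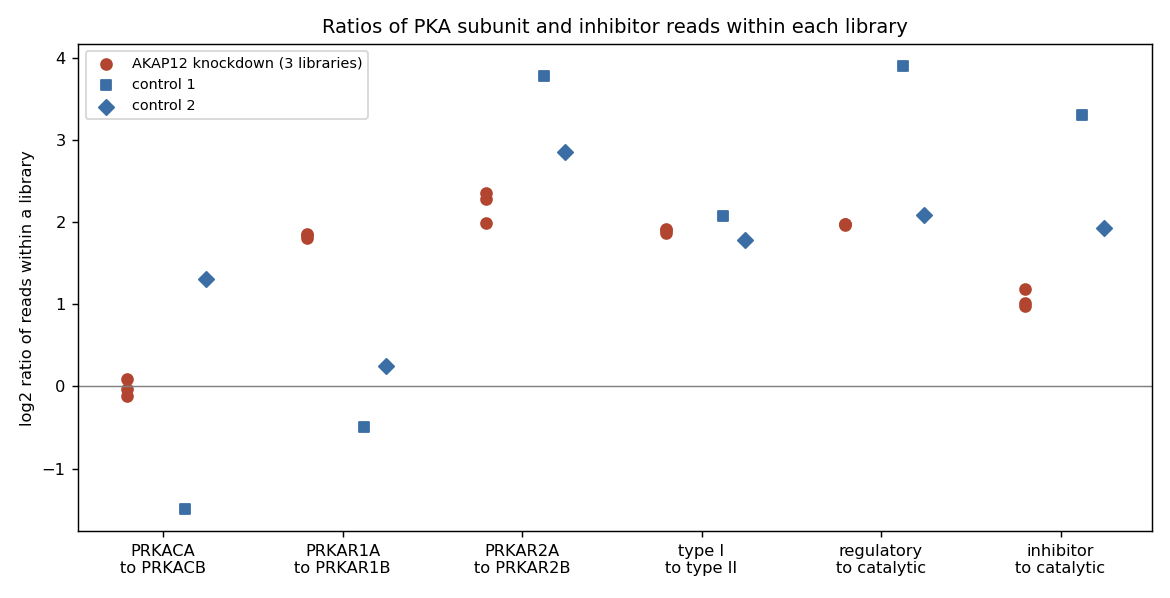
Log2 ratio of reads within each library (vertical axis) for 6 pairs of PKA genes or gene classes, with knockdown libraries as red circles and controls 1 and 2 as a blue square and diamond. The PRKAR1A to PRKAR1B ratio is above both controls in all 3 knockdown libraries; for PRKACA to PRKACB and for type I to type II the controls lie on either side of the knockdown.

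Summed over each class, catalytic genes had 72.6, 73.1 and 74.4 CPM in the knockdown, against 36.5 and 82.0 CPM in the controls. Regulatory genes summed to 284.5, 287.0 and 292.5 CPM, against 545.0 and 348.5 CPM. Inhibitors summed to 165.5, 148.4 and 146.8 CPM, against 360.6 and 313.1 CPM. The regulatory and inhibitor sums were lower in every knockdown library than in either control, and the catalytic sums overlapped.

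To compare levels between genes, CPM was divided by the exonic length in kilobases. On this scale the mean level in the knockdown was highest for PKIG (86.8 CPM per kb), followed by PRKAR1A (33.9), PRKAR2A (21.0), PRKAR1B (16.7), PRKACA (10.7), PRKACB (5.58), PRKAR2B (2.97) and PKIB (0.37). The ranges of neighbours in this order did not overlap in the knockdown. In the controls PKIG was again highest, with 204.1 and 177.0 CPM per kb, and PRKAR1B was second with 86.6 and 41.5. PRKAR2A had 40.8 and 28.9 CPM per kb and PRKAR1A 35.0 and 28.1, so their ranges overlapped on this scale. So did those of PRKACA (2.80 and 17.1) and PRKACB (4.06 and 3.56).

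A 3' end library gives about as many reads to a short transcript as to a long one, and part of this order rests on the division by length. On undivided CPM, PRKAR1A (mean 177.4 CPM) was above PKIG (152.7 CPM) in the knockdown. The ranges of PRKAR2A and PRKAR1B then overlapped in the knockdown, as did those of PRKACB and PRKACA. In the controls PKIG was highest on undivided CPM too, but second place went to PRKAR1B in control 1 and to PRKAR1A in control 2. PRKAR1A was above PRKAR2A in both controls on that scale (183.0 and 146.9 CPM, beside 97.2 and 68.7 CPM).

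In the authors' deposited table, PRKAR1B had a log2 fold change of -1.96 (adjusted p = 9.2e-06), PKIG of -1.15 (adjusted p = 7.3e-05) and PRKAR2A of -0.74 (adjusted p = 0.0477). In the authors' deposited table no other member passed 0.05, and PKIA has no adjusted p there. Of the 16104 genes with an adjusted p there, 4074 were under 0.05. Its values come from the same series, so they are not independent of the results above. That table does not state its direction. All 3282 genes called here have the same sign in it, so a negative value was read as lower in the knockdown.

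The 3 tested genes whose pattern over the 5 libraries was most like that of PRKAR1B were MBOAT7 (a phosphatidylinositol acyltransferase), TSTA3 (GDP-fucose synthesis) and SUGP1 (a splicing factor). Their root mean square differences from its centred log2 CPM were 0.03, 0.07 and 0.08, among 7928 genes compared. MBOAT7 had 88.9, 88.7 and 85.7 CPM in the knockdown, against 452.7 and 215.7 CPM in the controls. For PKIG they were TUBB4B (a beta-tubulin), METAP2 (a methionine aminopeptidase) and RRP1 (ribosomal RNA processing), with differences of 0.04, 0.05 and 0.05. TUBB4B had 615.3, 521.9 and 537.9 CPM in the knockdown, against 1229 and 1139 CPM in the controls, and its exons overlap FAM166A.

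The cAMP synthesis list holds adenylyl cyclases, the stimulatory G protein subunit gene GNAS and the inhibitory subunit genes GNAI1, GNAI2 and GNAI3, whose products lower cyclase activity. Of its 9 tested genes 3 rose, GNAI1 among them, and 1 fell, where 11.2% and 11.4% of all tested genes did. The median log2 fold change was 0.66. This median was 0.30 without control 1 and 1.16 without control 2. GNAS, which encodes the stimulatory G protein subunit, rose by 1.31 (SE 0.29, edgeR adjusted p = 0.0271), and its exons overlap LOC101927932. ADCY7, an adenylyl cyclase, rose by 1.72 (SE 0.43, edgeR adjusted p = 0.0345), with 1.26 without control 1 and 2.68 without control 2. ADCY7 had 8 reads in control 1, against 46 in control 2. GNAI1, an inhibitory G protein subunit, rose by 2.23 (SE 0.55, edgeR adjusted p = 0.0339), from few reads (26, 29 and 32 in the knockdown, against 4 and 5 in the controls). The cyclase ADCY6 fell, at -2.25 (SE 0.50, edgeR adjusted p = 0.0273), or -1.13 without control 1. By limma-voom GNAI1 (adjusted p = 0.0516) and ADCY6 (adjusted p = 0.0506) missed the threshold.

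Of 13 tested phosphodiesterase genes, which break cAMP down, edgeR called 0 in either direction, and 1 was higher and 2 were lower at an unadjusted p under 0.05. Over all tested genes 19.8% were higher and 20.7% lower at that unadjusted level. DESeq2 called 1 higher and 1 lower, where 15.0% and 15.7% of all genes passed, and limma-voom called 0, where 11.4% and 9.76% passed. The median log2 fold change was 0.05. This median was -0.10 without control 1 and -0.01 without control 2. The smallest p values belonged to PDE1A (log2 fold change -0.84, edgeR adjusted p = 0.0553), PDE4D (0.60, edgeR adjusted p = 0.0629, overlapping PART1), PDE4A (-0.74, or -0.47 without control 1, edgeR adjusted p = 0.115) and PDE3A (-0.65, edgeR adjusted p = 0.164).

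Of 22 tested anchoring protein genes other than AKAP12, 1 rose and 2 fell, where 11.2% and 11.4% of all tested genes did. The median log2 fold change was -0.05, or 0.01 without control 1 and -0.17 without control 2. GSKIP, which anchors PKA and GSK3, rose by 1.56 (SE 0.22, edgeR adjusted p = 0.0141) or 1.58 without control 1. The nuclear anchoring protein gene AKAP8 fell, at -0.89 (edgeR adjusted p = 0.0419, -0.52 without control 1), as did its paralog AKAP8L, at -0.92 (edgeR adjusted p = 0.0469, -0.57 without control 1). By library size only AKAP8 (edgeR adjusted p = 0.0691) and AKAP8L (0.0839) missed the threshold, and AKAP8L also missed it by limma-voom (adjusted p = 0.0560). ARFGEF2 was at -0.72 (edgeR adjusted p = 0.0656), or -0.40 without control 1. DESeq2 called 1 anchoring gene higher and 4 lower, where 15.0% and 15.7% of all tested genes passed. Limma-voom called 1 higher and 1 lower, where 11.4% and 9.76% passed.

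Of 8 tested genes for other PKA partners and cAMP effectors, 1 rose and 1 fell, where 11.2% and 11.4% of all tested genes did. The median log2 fold change was -0.14, or -0.33 without control 1 and 0.11 without control 2. RAPGEF3, which encodes the cAMP-activated exchange factor EPAC1, fell, at -2.67 (SE 0.50, edgeR adjusted p = 0.0209), or -1.49 without control 1. POPDC3, a cAMP-binding membrane protein gene, rose by 1.56 (edgeR adjusted p = 0.0341). GPR161, an orphan receptor gene of the primary cilium, was at -0.71 (edgeR adjusted p = 0.0662). The PKA-related kinase gene PRKX was at -0.36 (edgeR adjusted p = 0.2395). The catalytic paralog PRKACG had 0 reads in all 5 libraries.

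The CREB family and its coactivators act in the nucleus downstream of PKA. Of 8 such genes tested, 1 rose and 1 fell, where 11.2% and 11.4% of all tested genes did. The median log2 fold change was -0.08, or -0.05 without control 1 and -0.08 without control 2. The CREB coactivator gene CRTC1 fell, at -1.15 (SE 0.27, edgeR adjusted p = 0.0300), while its paralog CRTC3 rose by 1.26 (SE 0.31, edgeR adjusted p = 0.0329). CRTC3 exons overlap CRTC3-AS1, and CRTC1 missed the threshold by library size only (edgeR adjusted p = 0.0600). CREM was at 0.55 (edgeR adjusted p = 0.0977) and CREBBP at -0.32 (edgeR adjusted p = 0.230).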

How the data were processed

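The submitters' processing notes name STAR 2.7, featureCounts 1.6, DESeq2 1.22 and the build hg38. Per the file headers, featureCounts 1.6.2 assigned reads to exons of each gene, a read on several genes was given to all of them, and no strand option was set. The deposited counts are whole reads per gene. For the comparison the authors' deposited table lists a log2 fold change and its error, a mean signal (baseMean), a test statistic (a score) and p-values, per its header. The labels do not mention molecular identifiers. Intervals and limits take each read as a separate molecule and cover counting error only, so copies of a molecule would make them too narrow.

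Low genes were removed with filterByExpr (minimum count 10), and libraries were scaled by TMM, also for CPM. The main test over all remaining genes was edgeR's quasi-likelihood test, two-sided (edgeR 4.0.16 under R 4.3.3), with Benjamini-Hochberg adjustment and a threshold of 0.05. The printed SE equals the size of the log2 fold change over the root of F. Whether replicates are separate cultures is not labelled. The p-values then measure only spread among these samples, and that spread may be technical. With reads taken as independent, library pairs all differed beyond sampling noise (chi-square per degree of freedom of 5.30 or more). The alternatives were DESeq2 1.42.0, limma-voom (limma 3.58.1), RLE factors, scaling by library size only, dropping the filter, keeping genes with 5 CPM in 2 or more libraries (the stricter filter), a block for replicate number, and leaving out each library.

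The members and gene lists were chosen with earlier results of these data known. Named genes were the 9 members, AKAP12, the 4 genes of each pathway list with the smallest p, genes that overlap a member, and the 3 genes (mean log2 CPM of at least 4) most like each called member. Named marker genes and TERT were chosen after their values were seen. In a simulation modelled on this comparison over 14225 genes, the test found 91 of 100 genes changed 4-fold and 11 of 100 changed 2-fold. All changed genes had means above 20 CPM, and 10 of 14025 unchanged genes were called. Each simulated gene had the same spread in both groups, and few genes were changed. In the data the controls were less alike than the knockdown libraries, and 22.6% of tested genes were called. The simulated rates may therefore not hold for these data.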

Additional observations from a re-analysis of the deposited data

How the results depend on the processing

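PRKAR1B and PKIG were lower in every alternative run, and were called in all of them except the fit with the replicate block and the fits that leave out a knockdown library. With the replicate number as a block, edgeR called 0 members lower and 0 higher (PRKAR1B adjusted p = 0.0579, PKIG 0.135), and 210 of all tested genes (1.44%). None of the calls named above in the pathway and marker lists passed with the block. Deviations from the group mean had r of -0.05 and -0.08 across genes between same-numbered libraries. With 2 controls these deviations mirror each other, so this check cannot decide whether the numbers are pairs. The labels name no pairing, and the main test was run without the block. Leaving out any one knockdown library gave 0 calls among all genes, with 3774 to 4109 genes at an unadjusted edgeR p under 0.05. Over all single libraries left out, members called lower ran from 0 to 4, members called higher from 0 to 1, and called genes from 0 to 8811. Scaling by library size only gave 1 member called higher, PRKACB. Among phosphodiesterase genes, library size only called 1 of 13 higher (11.5% of all genes), RLE factors 1 of 13 lower (12.0%) and the stricter filter 1 of 8 lower (15.1%). The AKAP12 log2 fold change ran from -1.42 to -0.52 over single libraries left out, and it passed the threshold by DESeq2 (-1.09), by limma-voom (-0.98), with no filter (-0.996) and with the stricter filter (-1.06).

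Over single libraries left out, the log2 fold change ran from -0.68 to 1.92 for PRKACA and from -0.0497 to 0.273 for PRKAR1A. The cause was not tested. The log2 difference in ratio ran from -1.33 to 1.47 for PRKACA to PRKACB, 1.58 to 2.33 for PRKAR1A to PRKAR1B, -1.56 to -0.64 for PRKAR2A to PRKAR2B, -0.18 to 0.11 for type I to type II, -1.93 to -0.11 for regulatory to catalytic and -2.24 to -0.87 for inhibitor to catalytic. Divided by exon length, type I to type II was at -0.25. Depth limits PKIA and PKIB, with at most 17 reads in a library.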
